A study of Mus musculus with 4 samples.

Results

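The genes described here encode the receptors for calcitonin, amylin, calcitonin gene-related peptide (CGRP) and adrenomedullin. They comprise 2 receptor genes, Calcr and Calcrl, and the 3 genes of the receptor activity-modifying proteins, Ramp1, Ramp2 and Ramp3. They were picked by gene name, with earlier results of these data known, and all 5 were found among the 23991 gene symbols of the deposited tables, each as 1 entry. RNA came from the amygdala of mice of 1 genotype, NpyCre/+;TRAPlox/lox. In translating ribosome affinity purification (TRAP), a Cre-dependent tag on ribosomes allows the RNA bound to them to be immunoprecipitated (IP). Here Cre was driven by Npy, the neuropeptide Y gene. The IP was compared with the total input RNA, in 2 libraries each, every library holding the RNA of 3 pooled mice. Both groups carried the same alleles, no library without Cre was analysed here, and the age, sex and treatment of the mice are not given in the sources used here.

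Calcr and Calcrl encode related class B G protein-coupled receptors, and the RAMPs are small single-pass membrane proteins that decide which peptide such a receptor binds best. Calcr reaches the cell surface alone as a calcitonin receptor and becomes an amylin receptor with a RAMP. Calcrl needs a RAMP, forming the CGRP receptor with Ramp1 and adrenomedullin receptors with Ramp2 or Ramp3. Amylin acts on the brain to reduce feeding, CGRP carries aversive signals to the central amygdala, and adrenomedullin is best known for its action on blood vessels.

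Of these genes 4 have an entry in the RefSeq promoter table (GRCm38.p6, the assembly of mm10), and Ramp2 has none. The 250 bases before each listed start are shown for the genes that were higher in IP, Calcr and Ramp3, and for those that were lower, Ramp1 and Calcrl, so that their composition can be set beside the expression values. Sequences run 5′ to 3′ on the strand of the gene. Capitals mark matches, on either strand, to the GC box GGGCGG and to the core TGACG of the cAMP response element. The search also covered the whole element TGACGTCA, which contains the core, as well as CCAAT and TATAAA.
Calcr, start nearer to the coding exons, minus strand, chr6:3763624-3763873: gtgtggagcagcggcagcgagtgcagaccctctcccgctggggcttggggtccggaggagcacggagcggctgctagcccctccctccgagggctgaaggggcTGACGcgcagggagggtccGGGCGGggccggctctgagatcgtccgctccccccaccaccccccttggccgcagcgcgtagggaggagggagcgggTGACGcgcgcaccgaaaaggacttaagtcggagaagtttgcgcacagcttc
Calcr, outer start, minus strand, chr6:3764714-3764963: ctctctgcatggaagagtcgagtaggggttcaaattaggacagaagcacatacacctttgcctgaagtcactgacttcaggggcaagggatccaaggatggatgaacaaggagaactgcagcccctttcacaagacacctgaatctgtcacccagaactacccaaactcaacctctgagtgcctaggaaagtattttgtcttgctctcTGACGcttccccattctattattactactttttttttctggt
Ramp3, plus strand, chr11:6658283-6658532: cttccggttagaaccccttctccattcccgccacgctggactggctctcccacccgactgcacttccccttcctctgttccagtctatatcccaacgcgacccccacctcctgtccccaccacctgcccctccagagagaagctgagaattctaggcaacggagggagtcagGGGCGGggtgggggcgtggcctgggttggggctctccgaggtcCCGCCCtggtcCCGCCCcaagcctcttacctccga
Ramp1, plus strand, chr1:91179572-91179821: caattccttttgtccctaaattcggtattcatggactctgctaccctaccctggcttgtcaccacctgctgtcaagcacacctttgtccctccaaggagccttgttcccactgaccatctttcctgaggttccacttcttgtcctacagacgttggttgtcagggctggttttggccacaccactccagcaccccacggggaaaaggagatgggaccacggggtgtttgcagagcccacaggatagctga
Calcrl, minus strand, chr2:84425267-84425516: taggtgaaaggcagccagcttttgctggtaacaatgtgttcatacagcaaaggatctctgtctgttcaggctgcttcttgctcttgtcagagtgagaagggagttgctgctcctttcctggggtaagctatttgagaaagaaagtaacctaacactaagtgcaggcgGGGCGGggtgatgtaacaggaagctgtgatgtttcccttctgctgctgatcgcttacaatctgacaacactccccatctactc

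The inner Calcr promoter and that of Ramp3 were rich in G and C, at 70.8% and 65.2% against a median of 52.4% over 32536 distinct promoter windows of the same length. The outer Calcr promoter stood at 46% GC, Ramp1 at 54% and Calcrl at 48.4%. The GC box occurred 3 times before Ramp3, 1 time before the inner Calcr start and 1 time before Calcrl, and 33.0% of all windows hold it. TGACG occurred 2 times in the inner and 1 time in the outer Calcr window, and 17.9% of all windows hold it. TGACGTCA (1.56% of windows), CCAAT (33.8%) and TATAAA (12.3%) were found in none of the 5 windows. These are matches of letters only. The deposited values are per gene, so the use of the 2 Calcr starts was not measured.

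The deposited values are FPKM, fragments scaled to transcript length and library size, which allow levels of different genes to be compared. Changes between groups are given as folds of mean FPKM and as log2 changes on the log2(FPKM + 1) scale, which understates the change of low genes. They were tested with limma across the 12416 genes that reached 1 FPKM in 2 or more libraries, with Benjamini-Hochberg adjustment. Of all genes tested, 70.9% passed an adjusted p of 0.05, 37.0% higher and 33.9% lower in IP, so a call by itself says little, and the size of a change is given beside it. The sum of FPKM was 334759 to 335119 in input and 419349 to 423985 in IP. Markers of GABAergic neurons (5 of 5) and of Npy and Sst neurons (4 of 4) were higher in IP, and those of astrocytes (6 of 6), microglia (6 of 6) and oligodendrocytes (6 of 6) were lower, as were 3 of 5 glutamatergic genes, with none higher. All 6 microglial markers and 1 astrocyte marker reached the filter on FPKM through their input values alone, which favours a fall. The fit of all genes above 0 gave the same counts for these lists. Nos1, of the Npy and Sst list, lost its call after rescaling each library to the same sum (0.27; limma, adjusted p = 0.121) and without input replicate 1 (adjusted p = 0.0809). Ttr, a choroid plexus transcript, set input replicate 1 apart, at 172 FPKM against 9.66 in input replicate 2 and 10.4 and 1.31 in IP replicates 1 and 2. The differences compare RNA recovered in the IP with total RNA, so they do not measure numbers of cells or RNA per cell.

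Within the family, the balance of both the receptors and the RAMPs differed between IP and input. Calcr, Ramp3 and Ramp2 were higher in IP, by 4.97-fold, 3.53-fold and 1.93-fold. Ramp1 and Calcrl were lower, by 1.95-fold and 3.64-fold. Of the 4 genes tested, 3 rose and 1 fell, against 37.0% and 33.9% of all genes tested. Calcr reached the filter on FPKM through its IP values alone, which favours a rise, and Calcrl lay below it. In each of the 5 genes both IP libraries lay on the same side of both input libraries, which among all genes tested was so for 45.0% with IP above and 41.4% with IP below. The confidence limits that Cufflinks lists beside each FPKM did not overlap between the groups for any of the 5 genes. The share of all genes tested for which this holds was not counted, so it is given as a description only.

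**Figure D1:**
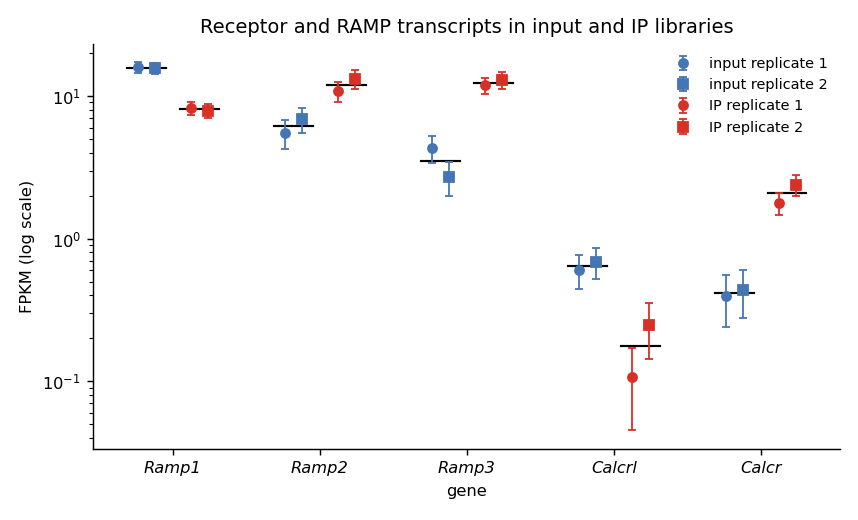
FPKM on a log axis of the 5 genes in each library, with input in blue and IP in red, replicate 1 as circles and replicate 2 as squares. Bars are the confidence limits listed by Cufflinks and black lines are group means. Ramp1 is the highest gene in input at 15.7 FPKM and lies below Ramp2 and Ramp3 in IP at 8.07, while Calcr and Calcrl exchange order.

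Calcr, the calcitonin receptor gene and the core of the amylin receptors, spans bases 3685720 to 3764713 of chromosome 6 in mm10, introns included. It was listed at 0.397 and 0.438 FPKM in input replicates 1 and 2 and at 1.77 and 2.38 FPKM in IP replicates 1 and 2. Both IP values lay above both input values, and the closest pair still differed 4.04-fold. If the listed limits span 2 SD of a read count on each side, these values rest on about 26 and 30 reads in input and 134 and 145 in IP. The mean rose from 0.418 ± 0.029 to 2.07 ± 0.43 FPKM (SD, n = 2), a log2 change of 1.11 (SE 0.12; limma, adjusted p = 0.000377), and 2.49% of the genes tested had a larger rise. Calcr entered the test through its IP values alone, which favours a difference. In a fit of all 18022 genes above 0, in which 24.7% were higher, its adjusted p was 0.00289 (limma), but it was 0.0619 without input replicate 1 and 0.0608 without input replicate 2. Within the numbered pairs of pools the fold was 4.46 and 5.43. The microRNA entries Mir489 and Mir653 lie within Calcr and were listed at 0 in all 4 libraries.

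Calcrl, the receptor gene of CGRP and adrenomedullin, lies on chromosome 2 from 84330627 to 84425266. It was listed at 0.603 and 0.690 FPKM in input replicates 1 and 2 and at 0.108 and 0.248 FPKM in IP replicates 1 and 2. Both IP libraries lay below both input libraries, with a smallest difference of 2.43-fold. The limits correspond to about 57, 68, 12 and 23 reads, so the IP values are the least precise of the family. The mean was 0.647 ± 0.062 FPKM in input and 0.178 ± 0.099 in IP (SD, n = 2), a log2 difference of -0.49. Without the filter on FPKM, where 28.9% of genes were lower, its adjusted p was 0.00811 (limma). That call was lost with quantile normalization (-0.21, adjusted p = 0.149) and without input replicate 1 (adjusted p = 0.0767) or input replicate 2 (adjusted p = 0.0951).

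The 2 receptor genes thus stood in opposite order in the groups. Calcr made up 39.7% and 38.8% of the summed FPKM of Calcr and Calcrl in the input libraries and 94.3% and 90.6% in the IP libraries. These shares are ratios within a library and do not depend on scaling between libraries. In input Calcrl was 1.52 and 1.58 times Calcr, although their confidence limits overlapped in both libraries. In IP Calcr was 16.4 and 9.60 times Calcrl. The share differed by 53.1 percentage points (two-sided exact permutation test, p = 0.33, the smallest value that 2 against 2 libraries allow). The spread between replicates was 0.62 points in input and 2.61 points in IP (SD, n = 2).

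Ramp1, which makes Calcrl a CGRP receptor and Calcr an amylin receptor, lies on chromosome 1 from 91179822 to 91225196. It was the most abundant gene of the family in input, at 15.9 and 15.6 FPKM in replicates 1 and 2, and was at 8.25 and 7.89 FPKM in IP replicates 1 and 2. The groups did not overlap, and the replicates were close together. The mean fell from 15.7 ± 0.17 to 8.07 ± 0.26 FPKM (SD, n = 2), a log2 change of -0.88 (SE 0.06; limma, adjusted p = 7.86e-05). A larger fall was seen in 10.2% of the genes tested. The change was -1.03 (limma, adjusted p = 7.95e-05) when the relation of expression to transcript length was removed from each library. The fall was of the same size in both pairs of pools, at 1.92-fold and 1.98-fold.

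Ramp2, which pairs with Calcrl as an adrenomedullin receptor, lies on chromosome 11 from 101246334 to 101248250. It was listed at 5.48 and 6.92 FPKM in input replicates 1 and 2 and at 10.8 and 13.1 FPKM in IP replicates 1 and 2. All IP values were above all input values, with 1.56-fold between the closest pair. The mean rose from 6.20 ± 1.02 to 11.95 ± 1.64 FPKM (SD, n = 2), a log2 change of 0.85 (SE 0.13; limma, adjusted p = 0.00141), and 6.01% of the genes tested had a larger rise. The change was 0.45 (limma, adjusted p = 0.0259) when the relation of expression to transcript length was removed from each library. Ramp2 has a short transcript of 1178 bases, and 8.22% of the genes tested have a shorter one. In the fit of all genes above 0 the adjusted p was 0.0101 (limma), and the call was lost there when input replicate 1, input replicate 2 or IP replicate 2 was left out, with adjusted p-values of 0.0911, 0.0623 and 0.074.

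Ramp3, which can pair with either receptor, lies on chromosome 11 from 6658533 to 6677475. It was listed at 4.31 and 2.70 FPKM in input replicates 1 and 2 and at 11.8 and 12.9 FPKM in IP replicates 1 and 2. The input libraries differed from each other more than the IP libraries did, yet the closest pair of IP and input was 2.75-fold apart. The mean rose from 3.51 ± 1.14 to 12.4 ± 0.76 FPKM (SD, n = 2), a log2 change of 1.59 (SE 0.17; limma, adjusted p = 0.000309). This was the largest change of the 4 genes tested on the log2(FPKM + 1) scale, and 84 of the 12416 genes, or 0.677%, rose more. The change was 1.21 (limma, adjusted p = 0.00119) when the relation of expression to transcript length was removed from each library. Like Ramp2, Ramp3 has a short transcript, of 1233 bases, and 9.31% of the genes tested have a shorter one. The fold was 2.75 in the first pair of pools and 4.78 in the second. In the fit of all genes above 0 the adjusted p was 0.00403 (limma), and 0.0536 without IP replicate 2. The predicted gene Gm11978 overlaps Ramp3 and was listed at 0 in all 4 libraries.

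As shares of the summed FPKM of the 3 RAMP genes, Ramp1 made up 61.8% and 61.9% in the input libraries and 26.7% and 23.3% in the IP libraries. Ramp3 went from 16.8% and 10.7% to 38.3% and 38.1%. Ramp2 went from 21.3% and 27.4% to 34.9% and 38.7%. No share overlapped between the groups. Among all genes tested, FPKM likewise did not overlap for 45.0% with IP above and 41.4% with IP below. The 3 shares of a library add up to its whole RAMP sum, so they are not separate results. The differences were -36.9 percentage points for Ramp1, 24.5 for Ramp3 and 12.4 for Ramp2. Each had p = 0.33 (two-sided exact permutation test), the smallest value possible. The sum of the 3 genes differed less, at 25.7 and 25.2 FPKM in input and 30.9 and 33.9 FPKM in IP. For each FPKM of Ramp1 there were 0.272 and 0.173 FPKM of Ramp3 in input, and 1.44 and 1.64 in IP. These shares and ratios were taken without removing the relation of expression to transcript length.

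**Figure D2:**
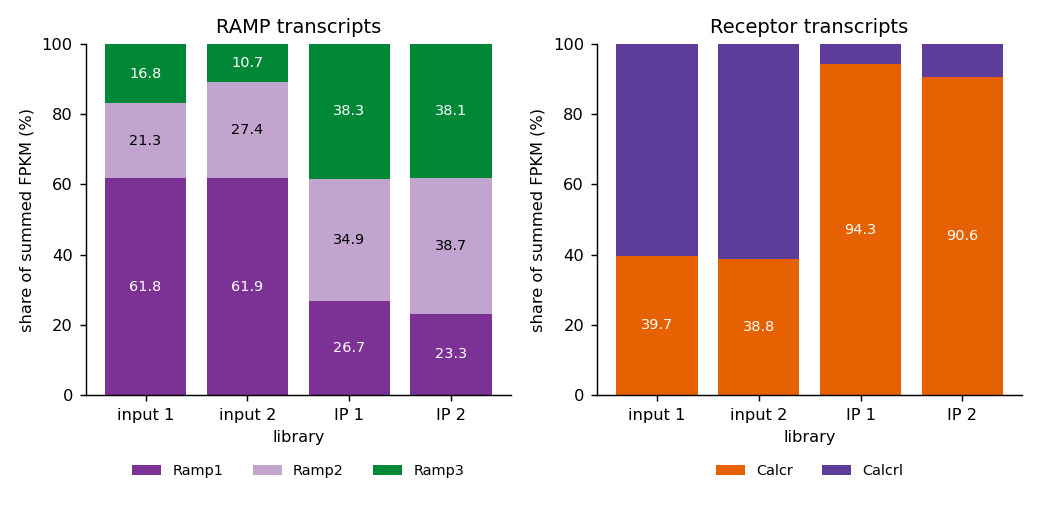
Shares in percent of the summed FPKM in each library, for the 3 RAMP genes on the left and for Calcr and Calcrl on the right, with the values printed in the bars. Ramp1 holds 61.8% and 61.9% of the RAMP sum in input and 26.7% and 23.3% in IP, and Calcr holds 39.7% and 38.8% of the receptor sum in input and 94.3% and 90.6% in IP.

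In input the order of levels was Ramp1, Ramp2, Ramp3, Calcrl and Calcr. The input values of neighbouring genes did not overlap, but the Cufflinks limits of Ramp2 and Ramp3 overlapped in replicate 1, and so did those of Calcrl and Calcr in both replicates. In IP Ramp3 and Ramp2 stood first, with overlapping values, followed by Ramp1, Calcr and Calcrl, each apart from the next. The RAMPs together exceeded the 2 receptor genes in every library, by 25.7 and 22.4 times in input and by 16.5 and 12.9 times in IP.

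The scaling between libraries changed sizes but no direction in this family. Rescaling each library to a sum of 1000000 moved the median change of all genes by -0.32. Ramp1 then changed by -1.26, Ramp2 by 0.58, Ramp3 by 1.43 and Calcr by 1.39 on the log2 scale, each past the threshold (limma, adjusted p of at most 0.0109). With quantile normalization the same genes changed by -0.90, 0.93, 1.74 and 1.43, also past it (limma, adjusted p of at most 0.00179). Calcr entered both fits through its IP values alone, which favours a difference. In fits of all genes above 0 its adjusted p was 0.00347 after rescaling and 0.00333 with quantile normalization (limma). Leaving out each library in turn kept the direction of all 5 genes.

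**Figure D3:**
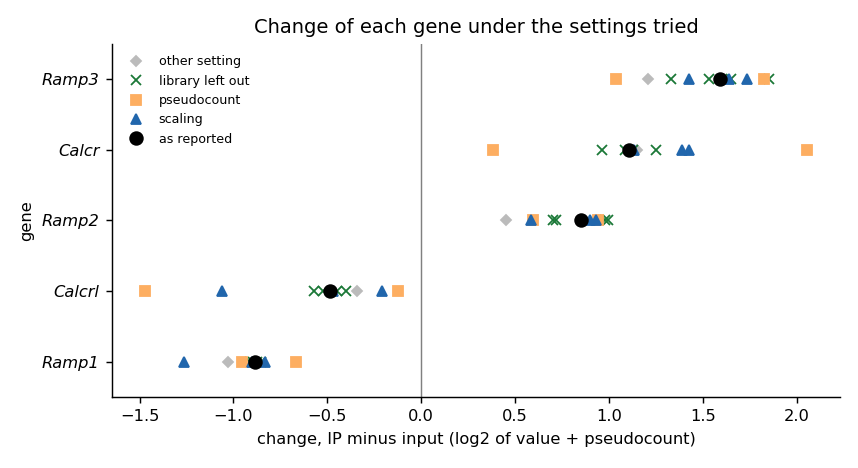
Change of each gene between IP and input, on the log2 scale of the value plus the pseudocount, under each setting tried. Black circles are the reported values, triangles other scalings, squares other pseudocounts, crosses fits without 1 library and diamonds the remaining settings. Every point of Ramp3, Calcr and Ramp2 lies above 0 and every point of Calcrl and Ramp1 below it, and Calcr ranges from 0.38 to 2.06 with the pseudocount.

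Endothelial cells are a known site of Calcrl and Ramp2, and mural cells surround the same vessels. In the fit of all genes above 0, in which 28.9% were lower, 12 of 13 endothelial markers were lower in IP and none was higher. Only 6 of the 13 reached the filter on FPKM, 4 through their input values alone, which favours a fall. Of these 6 markers 5 were lower, against 4 with quantile normalization and 4 to 6 with a library left out, and at FPKM of 5 the 1 marker left was lower. Cldn5, a tight junction gene, and Ly6c1 changed by -1.13 and -1.12, both having passed through input alone (limma, adjusted p = 0.0011 and 0.00767 without the filter). Summed over the 13 markers, the input libraries stood at 24.1 and 23.2 FPKM and the IP libraries at 14.3 and 12.4 FPKM, and none was at 0 in both IP libraries. Egfl7 was the most abundant of them, at 11.97 ± 0.41 FPKM in input and 9.59 ± 0.94 in IP (SD, n = 2), a fall (limma, adjusted p = 0.0183) that was lost without input replicate 1, input replicate 2 or IP replicate 2 (adjusted p = 0.0771, 0.124 and 0.0774). All 5 tested mural markers of 8 were lower, 3 of them tested through input alone, and 6 of 7 were lower without the filter. They were led by Vtn and Myl9 at -2.68 and -2.24, with input sums of 29.4 and 31.1 FPKM against IP sums of 4.06 and 5.19 FPKM, Kcnj8 at 0 in both IP libraries and Tagln at 0 in all 4. Of 5 meningeal and choroid plexus markers 3 were tested and 2 were lower, Dcn and Col1a1, the latter tested through input alone, at -2.66 and -1.04. The 5 markers had input sums of 189 and 26.1 FPKM against IP sums of 11.8 and 2.84 FPKM. Of these sums Ttr, which did not pass (limma, adjusted p = 0.0794), held 172 FPKM in input replicate 1 and 10.4 in IP replicate 1. Calcrl was lower in IP together with most of these endothelial, mural and meningeal markers, while Ramp2 was higher. The part of vascular cells in the Calcrl values was not tested.

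Among the peptide ligands, Iapp, which encodes amylin, passed the filter. It was listed at 11.2 and 45.4 FPKM in input replicates 1 and 2 and at 37.1 and 9.63 FPKM in IP replicates 1 and 2. The groups overlapped fully, with high values in input replicate 2 and IP replicate 1, and the Cufflinks limits of the high and low libraries lay apart. The means of 28.3 ± 24.1 and 23.4 ± 19.4 FPKM (SD, n = 2) did not differ past the threshold (limma, log2 change -0.24, SE 0.76; adjusted p = 0.79). With a library left out, this change ran from -1.20 without input replicate 1 to 0.72 without input replicate 2. Calca, the gene of calcitonin and alpha-CGRP, lay below the filter, with input values of 0.711 and 0.642 FPKM and IP values of 0.989 and 1.12, and the limits of the groups overlapped. In the fit of all genes above 0, in which 24.7% were higher, Calca was higher in IP (limma, adjusted p = 0.0251). Its limits correspond to only about 9 reads in each input library and 16 and 15 in IP replicates 1 and 2. Adm, the adrenomedullin gene, had input values of 0.238 and 0.803 FPKM and IP values of 0.869 and 0.626. Calcb, the gene of beta-CGRP, did not exceed 0.124 FPKM in any library, and Adm2, the gene of intermedin, did not exceed 0.108. Values of this size correspond to 2 reads or fewer.

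The other genes of the pathway moved in both directions. Of 53 ligand, maturation, partner and signalling genes and related receptors 38 were tested, of which 17 rose, 11 fell and 10 did not pass, with a median change of 0.08 against 0.03 over all genes tested. Over all 12416 genes tested 37.0% rose and 33.9% fell, and the counts of the single lists below in this fit stand beside those shares. List counts after rescaling or quantile normalization stand instead beside the counts over all genes given next for that setting. After rescaling to a sum of 1000000 the pathway counts were 5 and 18, against 2227 and 6692 over all genes tested. With quantile normalization they were 8 and 15, against 4356 and 3852. With the replicate number as a block the pathway counts were 17 and 14. Without input replicate 1, 7 were lower. The lists had been chosen with earlier results of these data known.

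All these peptides end in an amide, which the enzyme encoded by Pam makes. Pam rose from 28.3 ± 1.88 to 59.7 ± 3.75 FPKM (SD, n = 2), a log2 change of 1.05 (limma, adjusted p = 6.41e-05). Of the proteases that degrade peptides of this kind, Mme rose by 0.32 (limma, adjusted p = 0.0382), a call lost after rescaling (0.12, adjusted p = 0.482), without the filter (adjusted p = 0.0786) and without input replicate 2, IP replicate 1 or IP replicate 2 (adjusted p = 0.164, 0.0635 and 0.138). Ide differed by -0.27, which did not pass without the block (limma, adjusted p = 0.202) but did once the pairs entered as a block (adjusted p = 0.0124), after rescaling (-0.61, adjusted p = 0.0221) and without IP replicate 1 (-0.46, adjusted p = 0.0488). It was at 9.93 and 7.42 FPKM in input replicates 1 and 2 against 8.15 and 5.95 in the IP libraries of the same numbers, lower in both pairs. Of 8 genes for receptor partners and trafficking 7 were tested, of which 5 rose and 1 fell. The rises were small, such as 0.33 for Arrb1, which encodes a beta-arrestin, and 0.30 for Ackr3, a scavenger receptor gene, whose call was lost without input replicate 1, input replicate 2 or IP replicate 2 (limma, adjusted p = 0.0629, 0.197 and 0.195) and without the filter (adjusted p = 0.083). After rescaling none of this list was higher and 2 were lower, with 1 and 2 after quantile normalization. Slc9a3r1, which encodes a scaffold protein that can bind RAMP3, went from 21.5 ± 0.20 FPKM down to 3.58 ± 0.63, a log2 change of -2.30 (limma, adjusted p = 2.46e-05). Crcp, the gene of the receptor component protein of CGRP receptors, stood at 23.9 ± 0.12 and 25.4 ± 1.56 FPKM and did not pass (limma, log2 change 0.08, adjusted p = 0.277), although it was lower after rescaling (-0.25, adjusted p = 0.015) and with the length correction (-0.23, adjusted p = 0.0175). Gpr182, an endothelial receptor gene below the filter, had input values of 0.936 and 0.995 FPKM and IP values of 0.055 and 0.198.

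Calcr and Calcrl signal mainly through the stimulatory G protein and cAMP. Of 17 tested genes of this list 8 rose, 6 fell and 3 did not pass. Gnas, which encodes the stimulatory alpha subunit, rose from 1184 ± 34.9 to 1949 ± 39.9 FPKM (log2 change 0.72), and Prkacb, which encodes a catalytic subunit of protein kinase A, rose by 0.57. The adenylyl cyclase genes Adcy6 and Adcy9 changed by -0.80 and -0.65. Rescaling left 3 higher and 8 lower, and quantile normalization 2 and 7. Neither Gnas (0.056; limma, adjusted p = 0.371) nor Prkacb (0.080; adjusted p = 0.138) passed with quantile normalization. Of 5 tested genes of the Gq branch, Plcb4 rose by 0.55, Plcb3 and Gnaq changed by -1.29 and -0.35, and 2 did not pass. Plcb3 was tested through input alone (limma, adjusted p = 0.000985 without the filter), and with the replicate number as a block Plcb1 also passed (-0.19, adjusted p = 0.0323). After rescaling none was higher and 4 were lower.

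Calcr and Calcrl belong to the class B1 receptors, which RAMPs can also join outside this family. Of 13 other genes of the class 5 were tested, of which 1 rose, 2 fell and 2 did not pass. Crhr2, a receptor gene of the urocortins, went from 0.806 ± 0.034 FPKM up to 2.66 ± 0.014, a log2 change of 1.02 (limma, adjusted p = 0.000142). It entered the test through its IP values alone, as Calcr did, and its adjusted p without the filter was 0.00128 (limma). Vipr1, a receptor gene of vasoactive intestinal peptide, changed by -1.08, and Crhr1 by -0.44, a call that was lost with quantile normalization (-0.25; limma, adjusted p = 0.0547) and without input replicate 1 (adjusted p = 0.0765). Adcyap1r1, a receptor gene of the peptide PACAP, passed in the fit with the pairs as a block (-0.18, adjusted p = 0.0323) and not without it (adjusted p = 0.0535). Ghrhr was at 0 in all 4 libraries and Gcgr at 0 in both IP libraries.

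**Figure D4:**
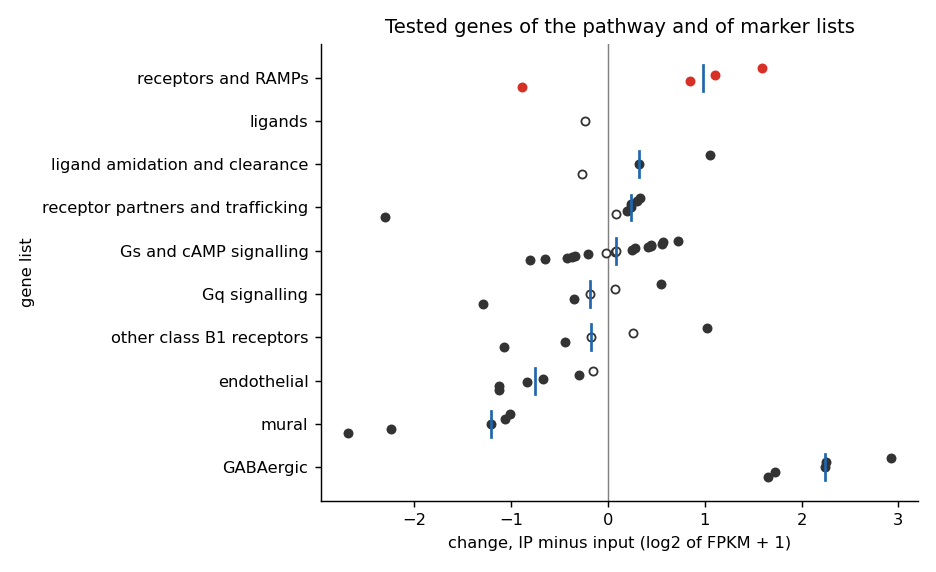
Log2 change of FPKM + 1 between IP and input for each tested gene of 10 lists. Red points are the receptor and RAMP genes, filled points passed an adjusted p of 0.05 in limma, open points did not, and blue lines are list medians. Ramp1 at -0.88 stands apart from Ramp2, Calcr and Ramp3 at 0.85, 1.11 and 1.59, while the 6 tested endothelial markers have a median of -0.76, 4 of them tested through input alone.

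The genes nearest to each member in pattern were found by the Euclidean distance between log2(FPKM + 1) values over the 4 libraries, after each gene's mean was subtracted. Nearest to Calcr were Hspe1, Nrsn2 and Sema6c, at distances of 0.029 to 0.062. Hspe1, a mitochondrial chaperonin gene, was at 37.7, 39.7, 75.7 and 92.1 FPKM in input replicates 1 and 2 and IP replicates 1 and 2. Ramp1 lay closest to Psd3, Dpy19l3 and Srrm2 (0.008 to 0.025), and Ramp2 to Scgn, Zfp804a and Pxdc1 (0.051 to 0.080). Scgn, which encodes the calcium-binding protein secretagogin, was at 0.463, 0.857, 1.76 and 2.20 FPKM in the same order. Ramp3 had no neighbour as close, with Cdk15, Tcap and Gltpd1 at 0.275 to 0.286. With 4 libraries such likeness is a description only.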

How the data were processed

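RNA of 2 IP and 2 input libraries, each of 3 pooled mice, was sequenced from 200 ng of RNA as 100 base single-end reads, per the series' design text. The authors aligned reads with TopHat at default settings to mm10 with the iGenomes UCSC annotation and estimated gene FPKM with Cufflinks, as stated in the design text and listed, without versions, in the submitters' processing notes. The deposited tables hold these FPKM beside their limits and status, per the file headers. They give no read totals or scaling between libraries, and whether counting used strand is not stated. The authors' Cuffdiff test was not used.

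Groups and numbers follow the titles, although the source name of IP replicate 2 calls it replicate 1. The design text gives each IP a corresponding input, so the numbers were taken as pairs, and deviations from the group means of same-numbered libraries correlated at 0.160 across genes. No FPKM of at least 5 was identical between replicates. Nothing beyond the pooling is stated about the replicates. Where the libraries of a pair come from 1 pool, the fit without a block and the permutation tests ignore this. The limma p-values rest only on the spread between 2 libraries per group, which limma pulls toward that of genes of similar level.

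Of 24490 entries per library, 8 with a failed status and 1275 small RNA entries were left out, and the entry with the highest mean was kept per symbol. The 12416 genes that reached 1 FPKM in 2 or more libraries were tested as log2(FPKM + 1) with lmFit and eBayes with trend in limma 3.58.1 (R 4.3.3), two-sided, without a block. On simulated data with 2 pools per group and 12416 genes, it recovered 79% of changes of 1 and 96% of changes of 2 on the log2 scale. There only a small part of the genes was changed, whereas 70.9% passed here, so these rates need not hold for these data. Shares were tested with exact permutation. Transcript lengths came from GENCODE for 99.4% of genes tested. Coordinates are 1-based mm10. The members and lists were chosen with earlier results of these data known. Named genes were the 5 members, the 5 ligands, up to 2 of the largest passing changes per direction and list, and the 3 nearest in pattern; other genes were named after their values were seen. Python 3.11.15 with pandas 2.3.3 and matplotlib 3.10.9 was used for tables and figures.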

Additional observations from a re-analysis of the deposited data

How the results depend on the processing

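Ramp1, Ramp2 and Ramp3 kept their direction and passed the threshold (limma) under all 16 alternatives planned, and Calcr under the 15 that kept it above the filter, the one at FPKM of 5 leaving it out. Adjusted p-values reached 0.0052, 0.0259, 0.00428 and 0.0108 in that order. Calcr entered all of these fits but that without the filter through its IP values alone, which favours a difference. With the replicate number as a block no member's call changed (Ramp2, adjusted p = 2.21e-05). The block, the other eBayes settings, summing entries per symbol and other filters left each member's log2 change as it was. In those alternatives only the p-value could differ, so they do not test the direction. Among the other listed genes the block added calls of lower in IP for Ide, Plcb1 and Adcyap1r1, which took pathway genes lower from 11 to 14, and for Ttr and Neurod6 (adjusted p = 5.21e-05 and 0.0239), and lost none. Left-out libraries gave 0.966 to 1.25 for Calcr, -0.914 to -0.856 for Ramp1, 0.705 to 0.994 for Ramp2, 1.33 to 1.85 for Ramp3 and -0.571 to -0.399 for Calcrl. Dropping the filter together with a library, chosen after seeing the data, lost the calls of Calcr without input replicate 1 or 2 (1.09 and 1.13), of Ramp2 without input replicate 1, input replicate 2 or IP replicate 2 (0.70, 0.99 and 0.72) and of Ramp3 without IP replicate 2 (1.53), where fewer libraries and more genes enter.

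The Calcrl change of -0.49 was -1.06 after rescaling, -0.21 with quantile normalization, -1.47 and -0.13 with pseudocounts of 0.1 and 5, and -0.34 with the length correction. The shares kept their direction without any 1 library, from -38.6 to -35.2 percentage points for Ramp1, 9.40 to 15.4 for Ramp2, 21.4 to 27.5 for Ramp3 and 51.3 to 55.0 for Calcr. Pathway genes numbered 5 higher and 18 lower after rescaling and 8 higher with quantile normalization, against 17 and 11, and 13 to 15 higher and 7 to 12 lower with a library left out. Over all genes tested, rescaling gave 2227 higher and 6692 lower against 4597 and 4205, and the filter at FPKM of 5 left 2438 lower. The cause of these shifts was not tested. Below 1 FPKM, low read numbers limit the precision of Calcr in input and of Calcrl.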
